A study of Mus musculus with 4 samples.

Results

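Luminal progenitor genes mark the milk-side precursor cells of the mammary epithelium, and 8 of them, Elf5, Kit, Aldh1a3, Cd14, Ltf, Lcn2, Folr1 and Wfdc18, were followed here on each array. They were found by symbol: all probe sets that the platform annotation gives to exactly 1 of these genes were taken, and the brightest by mean over the 4 arrays stood for the gene. All 8 were measured, by 11 probe sets, among 17097 genes in all. Mouse mammary cells had been transplanted either as 10000 BC cells alone, called multipotent in the labels, or as 8000 LC cells with 2000 BC cells, the unipotent control. Cells were sorted 3 days later, and RNA from 50 cells went onto each of 4 arrays, 2 per group. The labels do not spell out BC and LC, usually read as basal and luminal cells, and name no strain, age, host or sorting gate. The control holds LC cells and fewer BC cells, and the effects of these cannot be told apart. Whether replicates came from separate animals is not stated either, and p-values then reflect array-to-array spread that may be technical.

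The mammary duct has an inner luminal layer and an outer basal, contractile layer. Luminal progenitors are the luminal cells that carry the receptor Kit, divide readily in culture and give rise to milk-secreting alveolar cells. Elf5, a transcription factor of the ETS family induced by prolactin, drives that alveolar fate, and Aldh1a3, an aldehyde dehydrogenase that makes retinoic acid, and the surface protein Cd14 are used to recognise these cells. Ltf, Lcn2 and Wfdc18 encode secreted defence and milk proteins, and Folr1 a folate receptor.

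Promoter sequence is shown for 3 members, Wfdc18 and Ltf because they were the genes whose groups did not overlap, in opposite directions, and Kit because it belongs to the members that were high on a single BC alone array. Each is the 250 bases before an annotated transcription start, from RefSeq on GRCm38.p6, 5′ to 3′ on the gene's strand. Capitals mark matches, on either strand, to the ETS core AGGAAG or to the TATA box TATAAA.
Wfdc18: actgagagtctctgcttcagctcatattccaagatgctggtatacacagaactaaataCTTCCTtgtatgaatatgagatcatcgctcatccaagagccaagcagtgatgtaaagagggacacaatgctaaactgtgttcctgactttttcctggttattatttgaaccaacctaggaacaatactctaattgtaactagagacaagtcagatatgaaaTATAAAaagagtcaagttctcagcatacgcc
Ltf: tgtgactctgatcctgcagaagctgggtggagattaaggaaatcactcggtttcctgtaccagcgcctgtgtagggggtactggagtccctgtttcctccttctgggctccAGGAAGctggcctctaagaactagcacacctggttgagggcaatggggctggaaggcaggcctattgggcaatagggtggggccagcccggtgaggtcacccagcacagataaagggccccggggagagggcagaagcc
Kit: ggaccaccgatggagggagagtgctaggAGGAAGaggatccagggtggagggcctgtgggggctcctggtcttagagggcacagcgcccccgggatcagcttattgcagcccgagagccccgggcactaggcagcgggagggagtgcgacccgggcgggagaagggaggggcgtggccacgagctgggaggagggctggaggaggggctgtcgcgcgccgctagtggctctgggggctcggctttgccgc
The Wfdc18 window lies at chr11:83708754-83709003, the Ltf window at chr9:111019042-111019291 and the Kit window at chr5:75574737-75574986, all on the plus strand. Windows were found for 5 of the 8 members, 7 in all, since Elf5 and Kit have 2 starts each. An ETS core was in 5 of these 7 windows, those of Kit, Ltf, Lcn2 and Wfdc18, and in neither Elf5 window, while 29.5% of all 32851 windows of this length hold one. The Kit windows begin at 75574737 and 75574741 and hold the same match, which is counted in each. The TATA box was in the Wfdc18 window alone, beginning at position -31 from the start, and is in 12.4% of all windows. The STAT5 site TTCNNNGAA was in 0 of the 7 windows, against 7.02% of all. The motifs did not overlap in these windows, and a match is only a match of letters.

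Control replicate 2 stood apart from the other arrays. The SD over all its probe sets was 1.44, against 1.90 to 1.92, and Krt5, a basal keratin, was at 7.12 log2 there and at 10.22 to 10.76 on the other arrays. Of all genes, 12.1% were lowest on that array by at least 1 log2, and 0.105% to 0.187% were so on each other array. Between the groups, limma called 0 of 17097 genes, or 0%, at an adjusted p of 0.05, the smallest being 0.842, while 3.98% had an unadjusted p under 0.05. By size, 4.79% of genes were at least 2-fold higher in BC alone without overlap between the groups and 0.895% at least 2-fold lower. Of these 972 genes 84.3% were higher, but 54.4% of 614 after quantile normalization and 56.5% of 533 after cyclic loess. The median difference over all genes, -0.04 log2, became 0.085 after median centring.

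The 8 genes did not move as a block. Elf5, Kit, Aldh1a3 and Folr1 were high on BC alone replicate 2 and low on BC alone replicate 1, Wfdc18 was higher on both BC alone arrays than on both controls, Cd14 was high on control replicate 1, Ltf on control replicate 2, and Lcn2 was low on control replicate 2. None passed the test between the groups, at an adjusted p of 0.842 to 0.955 (limma, Benjamini-Hochberg over 17097 genes). BC alone had the higher mean for 5 members and the lower for 3, against 47% and 53% of all genes. The median difference of the members was 0.68 log2, against -0.04 over all genes. Over the 8547 genes brighter than the median gene, which include 7 of the 8 members, it was 0.375. Without control replicate 2 the median of the members was 0.15, against 0.005 over all genes. Between the highest and the lowest array 7 of the 8 members differed by at least 2 log2, as did 6.79% of all genes.

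**Figure D1:**
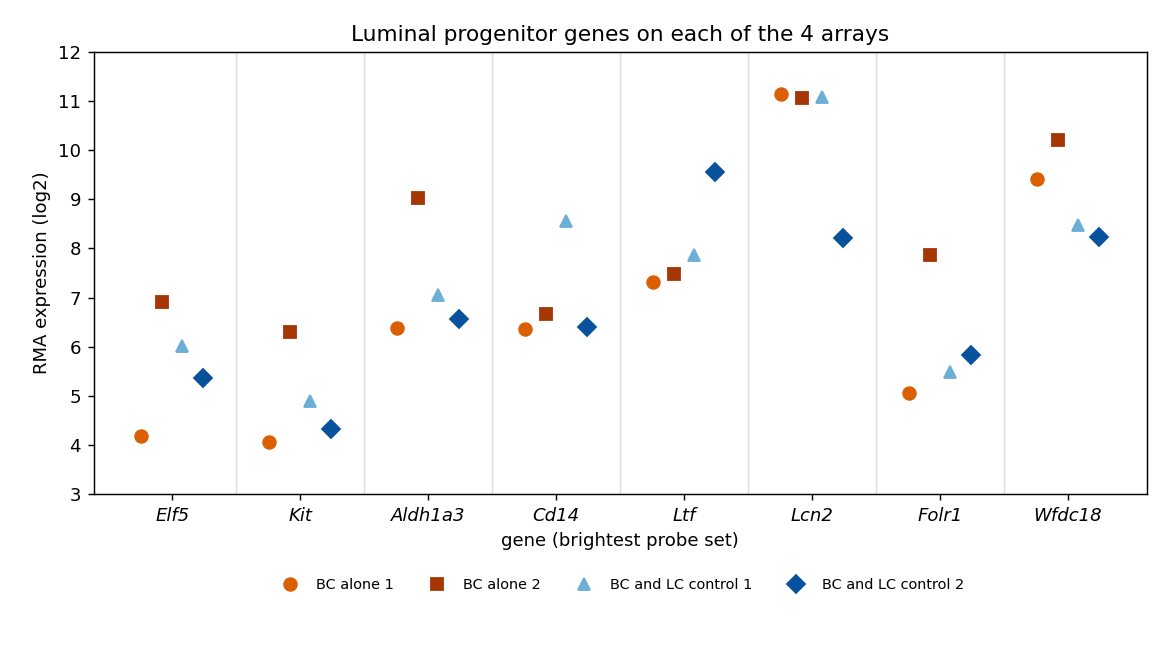
Log2 RMA expression of each luminal progenitor gene (brightest probe set) on the 4 arrays, 1 point per array and no averaging. BC alone replicate 2 is the highest array for 5 of the 8 genes and BC alone replicate 1 the lowest for 6, as they were for 19.2% and 21.8% of all genes.

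Among the regulators, Elf5 had log2 values of 4.19 and 6.90 on BC alone replicates 1 and 2, and 6.01 and 5.37 on control replicates 1 and 2. The controls thus lay between the BC alone arrays, which differed by 2.71, and the groups overlapped. The group difference was -0.14 ± 0.89 log2 (SE, limma, adjusted p = 0.955). Without BC alone replicate 1 it turned to 1.21, without control replicate 1 to 0.17, and without BC alone replicate 2 it was -1.50.

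The second Elf5 probe set, nearly as bright, gave another order of arrays. It had 5.18 and 4.60 in BC alone and 6.76 and 5.84 in the control, so both BC alone arrays lay below both controls and BC alone replicate 2 was the lowest of the 4. Its difference was -1.41 ± 0.43 log2 (SE, limma over 28898 probe sets with a single symbol, adjusted p = 0.853, where 0 probe sets passed), and 0.761% of those probe sets were at least 2-fold lower without overlap. The high Elf5 value of BC alone replicate 2 thus rests on 1 of its 2 probe sets, and the mean of both gave a group difference of -0.78 log2.

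Kit, the receptor tyrosine kinase for stem cell factor, had 4.06 and 6.29 in BC alone and 4.90 and 4.32 in the control. BC alone replicate 2 stood 1.39 above the next array, and BC alone replicate 1 lay below both controls. The group difference was 0.56 ± 0.75 log2 (SE, limma, adjusted p = 0.844), and -0.55 without BC alone replicate 2. Kit also marks mast cells and melanocytes. Of 7 mast cell markers and 6 melanocyte markers, 0 were at least 1 log2 higher on BC alone replicate 2 than on replicate 1, as 2.83% of all genes were, and the mast cell protease gene Cpa3 had 3.01 and 3.47 there. Their summed levels, as log2, were 6.78 and 6.77 for mast cell and 6.24 and 6.28 for melanocyte markers in BC alone, against 6.73 and 7.33, and 6.70 and 6.52, in the control. Low values may be background, and the part of these cells in the Kit value was not tested.

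Aldh1a3 had 6.38 and 9.02 in BC alone and 7.05 and 6.57 in the control. BC alone replicate 2 was 1.97 above the next array, and BC alone replicate 1 was the lowest of the 4. The group difference was 0.89 ± 0.86 log2 (SE, limma, adjusted p = 0.842), and -0.43 without BC alone replicate 2.

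Both other Aldh1a3 probe sets were also highest on BC alone replicate 2. The second had 7.39 and 9.43 with BC alone and 5.73 and 6.28 in the control, with no overlap and a difference of 2.40 ± 0.70 log2, or 5.30-fold (SE, limma over probe sets, adjusted p = 0.853), where 4.34% of probe sets were at least 2-fold higher without overlap. The third had 5.92 and 8.22 against 5.88 and 7.95, so control replicate 2 was almost as high as BC alone replicate 2, and its difference was 0.15 ± 0.99. The probe sets therefore shared the gap between the BC alone arrays and differed in the comparison with the controls.

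**Figure D2:**
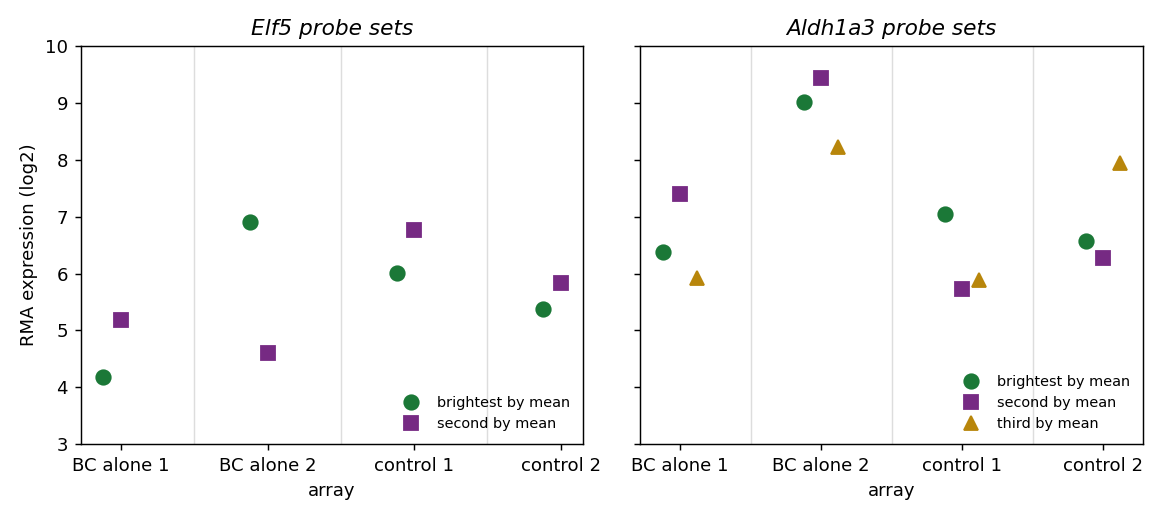
Log2 RMA expression of the 2 Elf5 probe sets (left) and the 3 Aldh1a3 probe sets (right) on each array, coded by brightness. All Aldh1a3 probe sets are highest on BC alone replicate 2, while the Elf5 probe sets take opposite ends there.

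Folr1, which takes up folate at the cell surface, had 5.05 and 7.86 in BC alone and 5.48 and 5.83 in the control. BC alone replicate 2 was 2.03 above the next array, and replicate 1 was the lowest of the 4. The group difference was 0.80 ± 0.90 log2 (SE, limma, adjusted p = 0.842), and -0.60 without BC alone replicate 2. Like Kit and Aldh1a3, it stood at least 1 log2 above every other array on BC alone replicate 2, as 0.854% of genes did, and was thus higher in BC alone on average through that array and lower without it.

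On their brightest probe sets, Elf5, Kit, Aldh1a3 and Folr1 were at least 2 log2 higher on BC alone replicate 2 than on replicate 1. The gaps were 2.71, 2.23, 2.64 and 2.81. Of all genes, 0.281% had a difference of at least 2 log2 in this direction and 0.158% the reverse. The second Elf5 probe set went the other way, with 5.18 and 4.60 on BC alone replicates 1 and 2. Under quantile normalization, median centring and cyclic loess the gap of the brightest probe sets stayed between 2.06 and 2.82 for all 4 genes. This is a difference between the arrays of a single group, each from 50 cells, and has no replicate of its own. In such bulk samples fewer cells of a type and less RNA per cell cannot be told apart.

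Milk genes, which alveolar cells express, took part in the same gap. Csn2, beta-casein, had 4.67 and 9.18 in BC alone and 4.79 and 6.92 in the control. Btn1a1, a protein of the milk fat globule membrane, had 6.26 and 10.25 against 6.04 and 6.63, and Lalba, alpha-lactalbumin, 5.91 and 9.48 against 5.64 and 6.37. Csn1s2a, another casein, had 6.99 and 9.92 against 5.54 and 7.34. Csn1s1, also a casein, had 6.48 and 7.65 against 8.27 and 5.99, and so was highest on control replicate 1. Of the 8 milk and alveolar genes, 5 were at least 1 log2 higher on BC alone replicate 2 than on replicate 1, where 2.83% of all genes were. The other 3 were not: Csn3 differed by 0.45, Wap by -0.16 and Glycam1 by 0.00. Their part in the values of Elf5, Kit, Aldh1a3 and Folr1 was not tested.

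**Figure D3:**
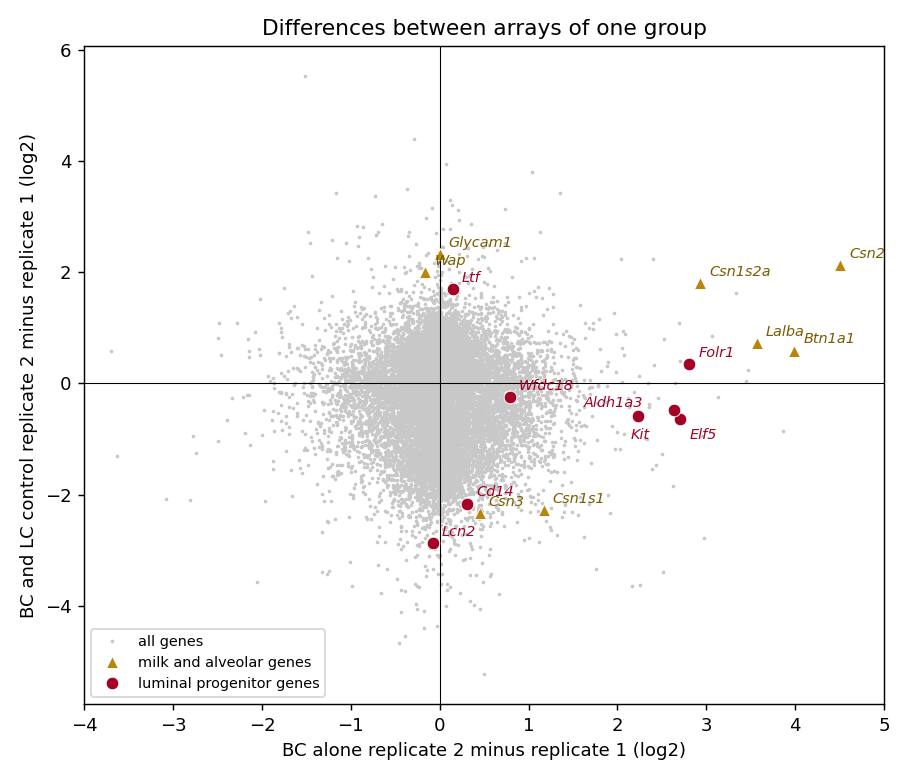
Log2 difference between BC alone replicates 2 and 1 (horizontal) against that between control replicates 2 and 1 (vertical). Each point is 1 gene (brightest probe set), with all 17097 genes in grey. Elf5, Kit, Aldh1a3 and Folr1 lie at 2.23 to 2.81 on the horizontal axis, in the range of Csn1s2a at 2.93 and below Csn2 at 4.51, while Cd14, Lcn2 and Ltf differ mainly between the controls.

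Wfdc18, also called WDNM1, is a small secreted protein of the whey acidic protein family and had 9.41 and 10.20 on the BC alone arrays and 8.47 and 8.23 on the controls. Both BC alone arrays were above both controls. The means were 9.80 ± 0.56 and 8.35 ± 0.17 (SD, n = 2), a difference of 1.45 ± 0.38 log2 or 2.74-fold (SE, limma, adjusted p = 0.842). An exact permutation test of 2 arrays against 2 gave p = 0.333, the smallest it can give. Wfdc18 was the only member at least 2-fold higher without overlap, 1 of 8 against 4.79% of all genes. It was 1.06 to 1.85 higher whichever array was left out, but under quantile normalization it fell to 0.69, with 9.03 and 9.84 in BC alone and 8.20 and 9.30 in the control, and the groups overlapped. Cyclic loess also gave 0.69, with overlap. Its probe set carries the suffix s, which marks probes shared by several transcripts.

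Ltf, lactoferrin, an iron-binding protein of milk and of neutrophil granules, had 7.32 and 7.47 in BC alone and 7.86 and 9.56 in the control. Both controls lay above both BC alone arrays, control replicate 2 by more than 1 log2 over every other array, as for 2.29% of genes. The means were 7.39 ± 0.11 and 8.71 ± 1.20 (SD, n = 2), a difference of -1.31 ± 0.59 log2 or 2.49-fold (SE, limma, adjusted p = 0.842), and an exact permutation test gave p = 0.333. Ltf was the only member at least 2-fold lower without overlap, 1 of 8 against 0.895% of all genes. Without control replicate 2 the difference was -0.46, and without control replicate 1 it was -2.16.

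Of the 14 mucosal and milk antimicrobial genes, Ltf included, 6 were highest on that same array and 3 lowest, as were 40.4% and 34.1% of all genes. Pigr, which carries antibodies across epithelia, had 7.58 on control replicate 2 against 4.63 to 4.80 elsewhere, and Glycam1, a mucin of milk, had 6.64 against 3.21 to 4.31. The neutrophil granule genes Camp and Ngp, whose proteins are stored with lactoferrin, lay at 4.13 to 4.27 and 3.42 to 3.83 over the 4 arrays. Of the 9 measured neutrophil markers 5 were highest on control replicate 2, as were 40.4% of all genes. All 9 had a lower mean in BC alone, as did 53% of all genes. At least 2-fold lower without overlap were 2, S100a8 and S100a9, both highest on control replicate 1, against 0.895% of all genes. The part of neutrophils in the Ltf value was not tested.

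Lcn2, lipocalin 2, binds the iron carriers of bacteria and had 11.15 and 11.07 with BC alone and 11.09 and 8.22 in the control. The first 3 arrays lay within 0.08 of each other, and control replicate 2 was more than 2 log2 below them, as it was by at least 1 log2 for 12.1% of all genes. The group difference was 1.45 ± 0.91 log2 (SE, limma, adjusted p = 0.842), and 0.02 without control replicate 2. Control replicate 2 minus control replicate 1 was -2.87, and -1.48 after quantile normalization or -1.06 after cyclic loess. Lcn2 and Ltf, both iron-binding defence proteins, thus moved in opposite directions on that array, and Slpi, a secreted protease inhibitor, went the way of Lcn2, with 9.68, 9.56 and 9.50 on the other arrays and 8.12 there.

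Cd14, the co-receptor that hands lipopolysaccharide to Tlr4, had 6.35 and 6.66 in BC alone and 8.56 and 6.40 in the control. Control replicate 1 stood 1.90 above the next array, as 0.714% of genes did by at least 1 log2, and the other 3 arrays lay within 0.31. The group difference was -0.98 ± 0.72 log2 (SE, limma, adjusted p = 0.842), -2.06 without control replicate 2 and 0.10 without control replicate 1. Cd14 is also a monocyte and macrophage gene. Of 10 markers of those cells 6 were highest on control replicate 1, where 19.2% of all genes were, among them the leukocyte gene Ptprc at 4.21 against 2.91 to 3.27. Their summed level, as log2, was 9.10 there against 8.27, 8.78 and 8.86 on BC alone replicates 1 and 2 and control replicate 2. Of 9 neutrophil markers 3 were highest on control replicate 1, S100a8 at 6.81 against 3.84 to 4.20, S100a9 at 5.88 against 4.03 to 4.60, and Csf3r at 4.09 against 3.23 to 3.66. Their part in the Cd14 value was not tested.

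**Figure D4:**
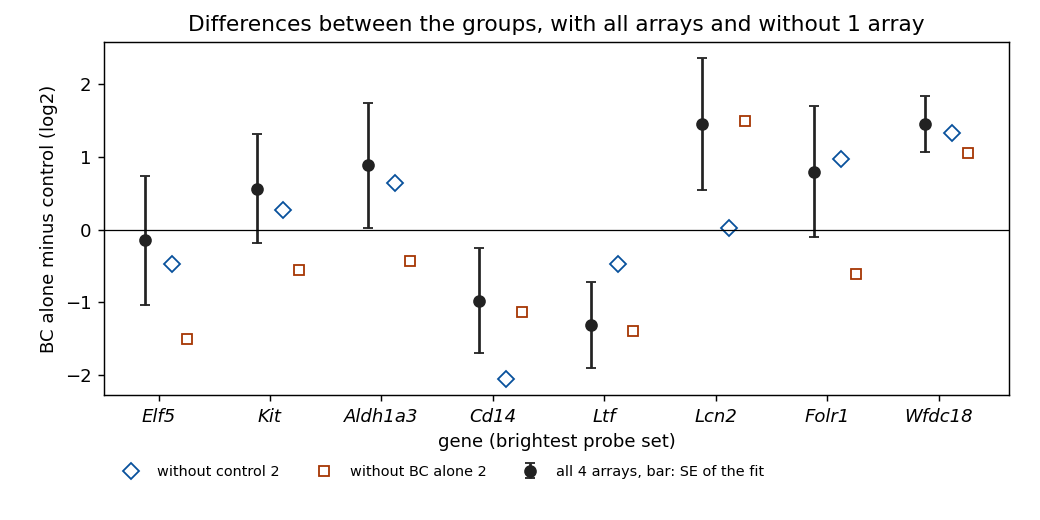
Log2 difference between BC alone and control for each gene (brightest probe set), over all 4 arrays with the SE of the fit (filled circles), without control replicate 2 (diamonds) and without BC alone replicate 2 (squares). Wfdc18 stays above 0, at 1.45, 1.33 and 1.06, while Kit, Aldh1a3 and Folr1 change sign without BC alone replicate 2 and Lcn2 comes to 0.02 without control replicate 2.

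The neighbours of these genes in their pathways were taken from 9 lists, in which limma called 0 genes at an adjusted p of 0.05. Upstream of Elf5, the prolactin receptor gene Prlr was not measured by a single-symbol probe set. Stat5a, which relays the prolactin signal, had 9.18 and 9.02 in BC alone and 9.06 and 7.17 in the control, and Tnfrsf11a, the receptor RANK, had 5.77 and 5.34 against 5.90 and 5.47. Neither showed the gap between the BC alone arrays that the brightest Elf5 probe set showed. Of 11 measured genes of this list 0 had a gap of 1 log2 or more, where 2.83% of all genes were higher and 2.85% lower. At least 2-fold higher in BC alone without overlap were 3, against 4.79% of all genes. Among them Socs3, a feedback inhibitor of cytokine signals, differed by 1.91 ± 0.62 log2 (SE). Against control replicate 1 alone Socs3 differed by 1.04.

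Ehf and Elf3, ETS factors of epithelia related to Elf5, had 5.65 and 6.34 against 5.16 and 6.39, and 6.82 and 8.05 against 6.56 and 7.32. Elf3 was thus 1.23 higher on BC alone replicate 2 than on replicate 1 and Ehf 0.69, both less than the brightest Elf5 probe set. Kitl, the ligand of Kit, had 9.16 and 9.22 in BC alone and 8.87 and 7.19 in the control, and did not differ between the BC alone arrays as its receptor did. It was 1.16 ± 0.58 log2 higher in BC alone (SE, limma, adjusted p = 0.842), or 0.32 against control replicate 1 alone. Spred1, an inhibitor of the Ras pathway, differed by 1.20 ± 0.61, or 0.32 against control replicate 1 alone, and the other 9 measured genes of the Kit list by less than 1 log2.

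Around Aldh1a3, the retinoid binding genes Rbp4 and Crabp2 had higher values on both BC alone arrays than on both controls, while Aldh1a1 and Aldh1a2 did not. Rbp4, the carrier of retinol, had 6.03 and 6.50 against 4.89 and 4.51, a difference of 1.56 ± 0.34 log2 (SE, limma, adjusted p = 0.842). Crabp2, which delivers retinoic acid to the nucleus, had 10.06 and 9.29 against 8.76 and 8.05, a difference of 1.27 ± 0.43. These were the 2 of 16 measured genes at least 2-fold higher without overlap, and 0 were lower, against 4.79% and 0.895% of all genes. Aldh1a1 had 3.06 and 4.37 against 4.14 and 4.04, and Aldh1a2 3.31 and 3.13 against 3.35 and 3.88. Aldh1a1 was the only gene of that list at least 1 log2 higher on BC alone replicate 2 than on replicate 1, as were 2.83% of all genes.

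For Cd14, the partners Tlr4 and Ly96 had 4.47 and 4.99 against 4.31 and 4.94, and 5.71 and 4.01 against 5.07 and 4.16. Neither was highest on control replicate 1. Lbp, which brings lipopolysaccharide to Cd14, was 1.62 ± 0.51 log2 higher in BC alone (SE, limma, adjusted p = 0.842), with 7.31 and 7.61 against 6.52 and 5.15, and 0.94 higher against control replicate 1 alone. Of 14 measured genes of that list 2 were at least 2-fold higher without overlap, Lbp and Rela, and 0 lower. Over all genes these shares were 4.79% and 0.895%. Rela, a subunit of NF-kB, differed by 1.20 ± 0.60 log2 (SE), or 0.34 against control replicate 1 alone.

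Slc22a17, a receptor for Lcn2, had 6.0 and 6.62 in BC alone and 6.24 and 6.35 in the control. Trf, transferrin, which luminal cells secrete into milk, had 10.66 and 10.75 against 10.69 and 8.88, and so was low on control replicate 2 like Lcn2. Tfrc, its receptor, had 5.47 and 5.68 against 6.77 and 5.42. Of 9 measured iron genes 1 was at least 2-fold different without overlap, against 5.69% of all genes. This was Hmox1, heme oxygenase, by 1.24 ± 0.35 log2 (SE, limma, adjusted p = 0.842).

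In the list of mucosal and milk antimicrobial proteins, 10 of 14 genes had a lower mean in BC alone, against 53% of all genes, with a median difference of -0.40 log2, against -0.04. Of these 5 were at least 2-fold lower without overlap, namely S100a8, Pigr, Ltf, S100a9 and Lyz2, and 1 was higher, the mucin Muc1, by 1.17 ± 0.51, against 0.895% and 4.79% of all genes. The arrays behind them differed, since S100a8 and S100a9 were high on control replicate 1 and Pigr and Ltf on control replicate 2. Lyz2, lysozyme, was higher on both controls, at 7.46 and 7.70 against 6.12 and 6.93.

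Around Folr1, Folr2, another folate receptor, had 5.0 and 4.59 with BC alone and 5.98 and 4.85 in the control, and the carrier Slc19a1 had 5.23 and 5.22 against 5.20 and 5.86. Of 10 measured folate genes 0 were at least 2-fold different without overlap, and 0 were at least 1 log2 higher on BC alone replicate 2 than on replicate 1, where 5.69% and 2.83% of all genes were.

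In the whey acidic protein family of Wfdc18, 0 of 11 measured relatives were at least 2-fold different without overlap, where 5.69% of all genes were. Wfdc2 had 7.24 and 7.63 in BC alone and 6.94 and 7.54 in the control. Wfdc12 and Slpi had higher values on both BC alone arrays, Wfdc12 with 5.66 and 5.72 against 4.98 and 4.89, a difference of 0.76 ± 0.29 log2 (SE, limma, adjusted p = 0.842), and Slpi by 0.81 ± 0.51, or 0.12 against control replicate 1 alone. Both were chosen for mention after their values were seen. Wap, the family's milk protein, had 4.30 and 4.14 against 3.89 and 5.89.

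Among 20 other luminal progenitor genes, BC alone had the higher mean for 16, against 47% of all genes. Their median difference was 0.62 log2, against -0.04 over all genes and 0.375 over the 8547 genes brighter than the median gene. Without control replicate 2 the mean was higher for 14, with a median of 0.23. At least 2-fold higher without overlap were 2, Cd55, a complement inhibitor, at 7.86 and 8.26 against 5.10 and 5.10, and Notch3, a Notch receptor, at 9.20 and 8.08 against 7.06 and 6.94. Cxcl15, a chemokine, was the 1 lower gene, at 4.56 and 4.49 against 5.42 and 7.09. Over all genes these shares were 4.79% and 0.895%. Of the 20, 10 were highest on BC alone replicate 2, as were 19.2% of all genes, and 10 were lowest on control replicate 2, as were 34.1%. At least 1 log2 higher on BC alone replicate 2 than on replicate 1 were 4, Lalba, Bcl11a, Elf3 and Itga2, by 3.57, 1.54, 1.23 and 1.04.

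**Figure D5:**
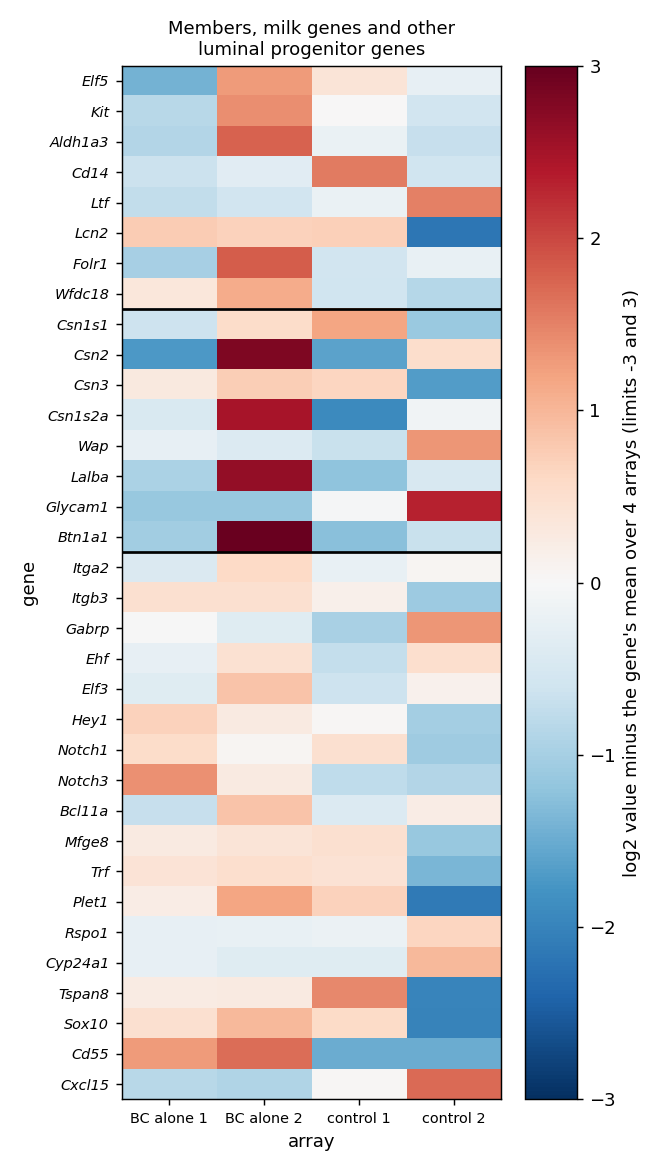
Log2 value (brightest probe set) minus the gene's own mean over the 4 arrays, with arrays in columns and genes in rows. The blocks are the 8 members, 8 milk and alveolar genes and 18 other luminal progenitor genes not in the block above. Elf5, Kit, Aldh1a3 and Folr1 share their red cell on BC alone replicate 2 with Csn2, Csn1s2a, Lalba and Btn1a1, while Ltf is red and Lcn2 blue on control replicate 2.

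Of 8 general luminal markers, 2 were at least 1 log2 higher on BC alone replicate 2 than on replicate 1 and 1 was lower, against 2.83% and 2.85% of all genes. Cldn7, a tight junction protein, had 7.65 and 9.57 in BC alone and 9.57 and 7.24 in the control, Elf3 was the other higher one, and Cldn3, a relative of Cldn7, had 7.74 and 6.30 against 8.23 and 7.20. The luminal keratins differed less between the BC alone arrays. Krt8 had 10.42 and 10.30 with BC alone against 10.16 and 8.0, Krt18 9.32 and 9.68 against 9.67 and 7.78, and Krt19 8.19 and 8.04 against 8.51 and 7.54. The basal genes Krt14 and Trp63 had 10.23 and 9.80, and 8.74 and 8.76, in BC alone, while Cnn1, a calponin of contractile cells, had 8.11 and 6.79. On control replicate 2 Krt14 and Trp63 had 6.78 and 5.20, against 10.49 and 8.81 on control replicate 1. The summed level of 8 measured basal and myoepithelial markers, as log2, was 9.16 on control replicate 2 and 12.4 to 12.8 on the others, and the part of this in the Lcn2 and Ltf values was not tested.

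Among markers of other cell types, the fibroblast genes Col1a1 and Col1a2 had 10.84 and 10.91 against 10.30 and 8.62, and 4.12 and 3.91 against 3.73 and 4.42. Of 7 fibroblast markers 5 were at least 2-fold higher in BC alone without overlap, as were 3 of 6 endothelial markers and 4.79% of all genes. Their summed levels, as log2, were 12.1 and 12.2 for fibroblast and 9.49 and 9.31 for endothelial markers in BC alone, against 11.2 and 9.61, and 8.79 and 8.74, in the control. These separate the groups as Wfdc18 does, and their part in its value was not tested. Of 10 macrophage and monocyte markers, 2 were at least 1 log2 higher on BC alone replicate 2 than on replicate 1 and 0 lower. Of all genes, 2.83% and 2.85% were so. The 2 were Adgre1 at 3.10 and 4.61 and Mrc1 at 3.57 and 4.80, while Csf1r had 5.12 and 4.86 and Cd68 6.91 and 7.31. No marker was tested against background.

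Genes most like each member over the 4 arrays were found by the Euclidean distance between log2 values centred on the gene's mean. For Kit they were Abca8a and Ms4a4d, at distances of 0.24 and 0.29, and for Aldh1a3 Smoc2 and Ms4a4d, at 0.21 and 0.33. Elf5 was followed by Itga5 and C1qa, at 0.44 and 0.53, and Folr1 by Penk and Aqp5, at 0.38 and 0.40. The nearest to Cd14 were Aldh3b2 and Cybb, at 0.26 and 0.30, and to Ltf Scgb2b27 and Upk2, at 0.22 and 0.27. Lcn2 had Ndufa7 and Palld at 0.030 and 0.052, both low on control replicate 2 alone, and Wfdc18 had Ntrk2 and Ubfd1 at 0.067 and 0.14. Among the members themselves Kit and Aldh1a3 were the nearest pair, at 0.44, then Aldh1a3 and Folr1 at 0.61, while Ltf and Lcn2 were the farthest apart, at 4.26.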

How the data were processed

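RNA from 50 sorted mouse mammary cells per array was measured on 4 Affymetrix arrays. The authors deposited log2 expression per probe set, made with RMA and affy (versions not given) per the submitters' processing notes. RMA subtracts background, normalises arrays, summarises probes and compresses large differences. Whether the 4 arrays were normalised together is not given in the sources used here, and array medians were 4.38, 4.37, 4.38 and 4.62. No detection calls were used, so low values may be background. Of 45141 probe sets, 28898 had 1 symbol in the platform annotation, 551 several and 15692 none. The brightest probe set by mean stood for a gene, with no filter.

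Groups were compared in limma 3.58.1 under R 4.3.3 (lmFit and eBayes, two-sided, Benjamini-Hochberg over 17097 genes, 2 residual degrees of freedom). The fit was tried on simulated data with equal noise on every array, so without an array like control replicate 2. Folds are 2 to the power of the log2 difference. Alternatives were the mean of probe sets, other scalings and variance models, a filter on dim genes, the replicate block, leaving out each array, and, chosen after seeing the data, single probe sets. The members and lists were chosen with earlier results of these data known. Named were all members, set neighbours, the largest 2-fold changes of each list, most of the first measured markers and the nearest genes. Values were not given for Pdgfra, Mcpt4, Cma1 and the first measured markers of endothelial cells and melanocytes. Other genes, among them the milk genes but Csn3 and those of single arrays, were chosen after their values were seen. Rarb and Prlr, also set, were not measured by a single-symbol probe set.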

Additional observations from a re-analysis of the deposited data

How the results depend on the processing

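No member passed an adjusted p of 0.05 in limma in any of the alternatives run. The lowest adjusted p of a member was 0.0842, for Lcn2 and Ltf without control replicate 1. Wfdc18, Lcn2 and Ltf kept their direction in all 12 alternatives each. When 1 array was left out Elf5 ran from -1.50 to 1.21, Kit from -0.55 to 1.68, Aldh1a3 from -0.43 to 2.21, Cd14 from -2.06 to 0.10 and Folr1 from -0.605 to 2.205, so each changed sign. Members at least 2-fold higher without overlap numbered 0 after quantile normalization and 0 after cyclic loess, and 1 to 5 without 1 array. Those lower numbered 2 and 2 under these scalings, Cd14 with Ltf, and 1 to 3 without 1 array, where 3 arrays overlap less easily. Over all genes 97 passed with an intensity trend. The same replicate numbers do not pair the arrays by any label, and same-numbered arrays deviated from their group means with a correlation of -0.018 across genes. With the replicate block, 108 genes passed, 0 of them members. At least 2-fold without overlap were 620 genes with the mean of probe sets, 614 after quantile normalization, 533 after cyclic loess, and 732 to 3824 without 1 array. The cause was not tested. Kit was not among the genes kept when dim genes were left out. With 2 arrays a group and no detection calls, differences under 2-fold and values near background cannot be resolved. Larger differences were not called either when the groups were compared without trend or block. Cd55, 7.78-fold higher in BC alone without overlap, had an adjusted p of 0.842 there (limma).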

Other observations

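Hormone-sensing luminal cells, the other main luminal type, have their own markers, of which 5 were measured. Cited1, a cofactor of the estrogen receptor, had log2 values of 5.97 and 6.04 in BC alone and 5.34 and 9.28 in the control, and Foxa1, a pioneer factor of that receptor, had 5.42 and 4.21 against 4.79 and 7.36. Both were highest on control replicate 2, as Ltf was and as were 40.4% of all genes. Esr1, the estrogen receptor, was instead higher on both BC alone arrays, at 8.13 and 9.19 against 6.48 and 6.72. Pgr, the progesterone receptor, had 6.57 and 5.59 against 7.36 and 5.30. Prom1, a surface marker of these cells, had 8.26 and 6.40 against 6.07 and 6.07, and with Esr1 was at least 2-fold higher in BC alone without overlap, as were 4.79% of all genes. On BC alone replicate 2 minus replicate 1, Esr1 differed by 1.06, Foxa1 by -1.21 and Prom1 by -1.86.

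Of 3 measured erythroid genes, 1 differed by at least 1 log2 between the BC alone arrays, and the other 2 were lower on both BC alone arrays than on both controls. Hba-a1, a globin chain, had 11.09 on BC alone replicate 1 and 8.31 on replicate 2, against 11.59 and 10.64 in the control. Klf1, an erythroid transcription factor, had 3.80 and 3.69 in BC alone and 5.16 and 5.09 in the control, and Alas2, the first enzyme of heme synthesis in these cells, had 5.10 and 5.02 against 6.57 and 6.21. Both were at least 2-fold lower in BC alone without overlap, by -1.38 ± 0.29 and -1.33 ± 0.31 log2 (SE, limma, adjusted p = 0.842), where 0.895% of all genes were. Their part in the member values was not tested.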
